A study of Homo sapiens with 8 samples.

Results

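The genes for the 5 subunits of NF-κB, NFKB1, NFKB2, REL, RELA and RELB, were examined for NIPBL, MED1 and SMC1A binding in GM12878. Members were the peaks that overlapped 5 hg19 windows, each the gene with about 30 kb on either side. The windows were chr4:103390000-103570000 for NFKB1, chr10:104124000-104192000 for NFKB2, chr2:61078000-61185000 for REL, chr11:65391000-65460000 for RELA and chr19:45475000-45571000 for RELB. They spanned 520 kb and held 110 of the 224694 peaks in the 6 lists.

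GM12878 is an established lymphoblastoid line made from B lymphocytes, and the cells were untreated. ChIP-seq, in which crosslinked chromatin is pulled down with an antibody and its DNA sequenced, was done in 2 libraries each for NIPBL, MED1 and SMC1A, and 2 whole cell extract (WCE) libraries were pooled as the control of every list. Whether the 2 libraries of a factor are from separate cultures is not in the labels, and p-values then measure only a spread that may be technical. Peak lists hold no expression values, so the B cell label could not be checked against marker genes here. The lists held 15357 to 68228 peaks on chromosomes 1 to 22 and X. Relative depth was taken indirectly, from the lowest control estimate of each list, and not from read counts. By this measure MED1 replicate 1 was highest, and the other libraries had 0.743 to 0.965 of its value. MED1 replicate 2 stood apart from replicate 1, with 45046 against 18131 peaks. Results that rest on it are therefore given library by library.

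NF-κB is a family of transcription factors that bind DNA as dimers at κB sites and switch on genes of inflammation, survival and B cell activation. In resting cells most dimers are held in the cytoplasm by inhibitor proteins, and signalling through receptors releases them. NFKB1 and NFKB2 encode the precursors p105 and p100, which are processed to the DNA-binding subunits p50 and p52. RELA (p65), REL (c-Rel) and RELB carry the transactivation domains. RELA and REL act mostly in the canonical pathway, and RELB pairs with p52 in the noncanonical pathway. In virus-transformed B cell lines the pathway is known to be driven by a viral membrane protein that mimics a TNF receptor. NIPBL loads the cohesin ring onto DNA, SMC1A is a core part of that ring, and MED1 is a subunit of Mediator, which links enhancer-bound factors to RNA polymerase II.

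The promoters are shown because MED1 was listed at the start of every one of the 5 genes, and because the family can bind its own promoters where they hold κB sites. RefSeq (GRCh38.p14) had promoter entries for 4 of the 5 genes, with 8 starts in all. For each gene the start with most κB matches is printed, or, with none, the start with most CpG. The 250 bases before the start are given 5′ to 3′ on the strand of the gene, and capitals mark every match to the κB consensus on either strand.
NFKB1: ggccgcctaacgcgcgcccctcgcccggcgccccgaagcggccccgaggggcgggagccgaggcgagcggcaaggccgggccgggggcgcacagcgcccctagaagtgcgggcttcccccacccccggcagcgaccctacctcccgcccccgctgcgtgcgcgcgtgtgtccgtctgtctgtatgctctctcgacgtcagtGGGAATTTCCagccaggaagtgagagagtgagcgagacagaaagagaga
NFKB2: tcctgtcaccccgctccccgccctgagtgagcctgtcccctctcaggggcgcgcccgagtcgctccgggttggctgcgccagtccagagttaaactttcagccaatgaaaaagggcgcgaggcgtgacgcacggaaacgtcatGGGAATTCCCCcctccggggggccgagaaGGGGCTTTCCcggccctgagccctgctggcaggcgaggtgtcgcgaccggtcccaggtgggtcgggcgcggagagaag
REL: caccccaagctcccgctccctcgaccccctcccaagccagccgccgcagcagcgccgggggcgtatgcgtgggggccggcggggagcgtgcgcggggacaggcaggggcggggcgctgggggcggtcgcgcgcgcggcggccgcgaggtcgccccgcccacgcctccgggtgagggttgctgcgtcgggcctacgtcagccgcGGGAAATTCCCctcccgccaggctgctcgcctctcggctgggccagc
RELA: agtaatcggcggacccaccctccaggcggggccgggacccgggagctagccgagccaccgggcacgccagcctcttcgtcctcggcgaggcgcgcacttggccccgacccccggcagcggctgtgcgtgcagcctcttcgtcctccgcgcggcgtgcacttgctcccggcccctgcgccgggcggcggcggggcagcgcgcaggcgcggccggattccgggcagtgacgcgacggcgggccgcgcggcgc

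The κB consensus, a motif of 10 letters, was searched in the 250 bases before and 50 bases after each start. Of 34943 RefSeq promoters of that length 3933, or 11.3%, held at least 1 match. NFKB1 held GGGAATTTCC, which began 49 bases before the start. NFKB2 held GGGAATTCCCC, formed by overlapping matches that began 107 bases before the start, and GGGGCTTTCC, which began 78 bases before it. REL held GGGAAATTCCC, also formed by overlapping matches, which began 47 bases before the start. A further start of NFKB2 held GGGGCTTCCC and GGGACTTTCC. In all, 4 of the 8 starts held a match. A further start of NFKB1, another of NFKB2 and both starts of RELA held none in the window. The stretches searched were chr4:102501109-102501408 on the plus strand for NFKB1, chr10:102394328-102394627 (plus) for NFKB2, chr2:60881324-60881623 (plus) for REL and chr11:65662867-65663166 on the minus strand for RELA. A match is a description of the sequence and not a measured site, and no position on this build was carried over to the hg19 peaks.

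MED1 was present at all 5 gene starts in both libraries, while NIPBL and SMC1A were listed at some of them. The gene start was placed 30 kb inside the window, an approximation that can be off by a few kb, and distances below are from it, positive into the gene. NIPBL was listed in the MED1 region at 3 of 5 starts in replicate 1 and at 4 of 5 in replicate 2. SMC1A was listed there at 2 of 5 in replicate 1 and at 3 of 5 in replicate 2. Without an hg19 annotation the share of all gene starts with each factor was not computed here, so these counts have no background beside them. RELB was the gene whose start had MED1 and no peak of either partner.

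Fold enrichment is the authors' value for a peak, the signal at its summit over the local control, and it is used here to describe and rank peaks of the same list. The percentile of a peak gives the percent of peaks in its list with a fold no higher than its own. At the REL start, MED1 had folds of 5.04 and 12.8 in replicates 1 and 2, at percentiles 79.6 and 95.4. At the NFKB2 start they were 4.31 and 10.5, at percentiles 65.8 and 92.5. At the NFKB1 start they were 5.00 and 9.36, at percentiles 79.2 and 89.5. These 3 starts thus lay in the upper part of both MED1 lists. At the RELA start, MED1 had folds of 4.23 and 8.97, at percentiles 63.7 and 88.3. At the RELB start it had 3.18 and 7.01, at percentiles 24.3 and 77.8. RELB was lowest of the 5 in each library. Its mean percentile was 51.0 ± 37.8 (SD, n = 2), and that of REL 87.5 ± 11.2 (SD, n = 2). All starts are read in the same 2 libraries, so these SDs include the shift between the lists. With 2 libraries the difference was not tested.

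**Figure D1:**
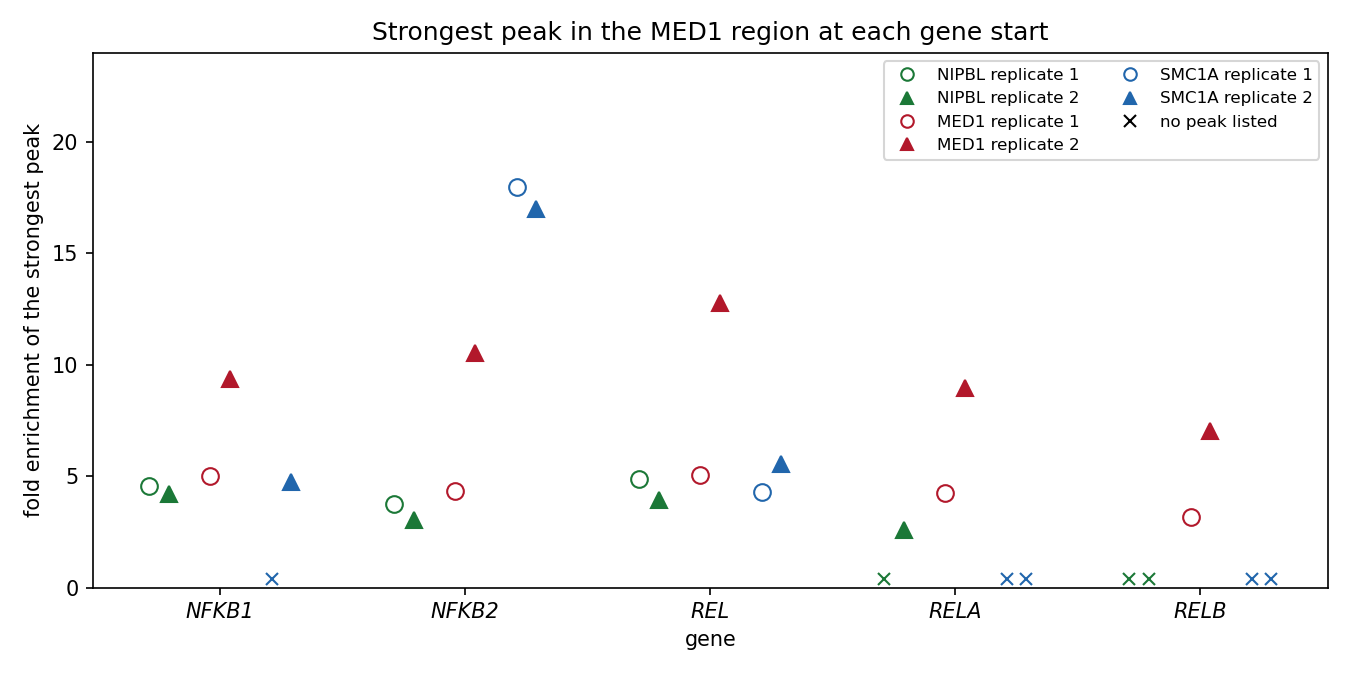
Fold enrichment (linear axis from 0) of the strongest peak of each library inside the MED1 region at each gene start, with NIPBL, MED1 and SMC1A from left to right in each gene, open circles for replicate 1, filled triangles for replicate 2 and crosses where no peak was listed. MED1 had a peak at all 5 starts in both libraries, SMC1A reached 18.0 and 17.0 at NFKB2, and RELB had MED1 only.

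The fragments behind these values were few. The number of fragments over a summit was solved from the fold and the p-value of the peak. For the MED1 peak of highest fold at each gene start it was 32 to 47 in replicate 1 (32 at RELB with an exact 95% Poisson interval of 21.9 to 45.2) and 47 to 90 for replicate 2 (90 at REL, 72.4 to 110.6). NIPBL summits at gene starts held 23 to 42 fragments. The lowest number in any called peak of the 6 lists was 7 to 11, over all chromosomes. Within the windows the lowest was 23 in both NIPBL lists, and 18 and 13 in SMC1A replicates 1 and 2. Peaks are called against the local control, so the number needed at a given start can be higher than 7 to 11. Weaker binding at a start without a peak would not have been detected. Intervals cover counting error only.

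NFKB1, which encodes p105 and p50, had NIPBL with MED1 at its start and at an intragenic site, and its SMC1A regions around its 3′ end. Its start held a MED1 region of 2228 bp (chr4:103421656-103423883), which is 1 broad peak in replicate 2 and 2 peaks in replicate 1. NIPBL lay inside it at chr4:103422899-103423605, with folds of 4.55 and 4.20. SMC1A was listed there in replicate 2 alone, at 4.74.

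The strongest NIPBL region of the NFKB1 window lay inside the gene, 65.7 kb from the start, at chr4:103485442-103485901. NIPBL had folds of 5.87 and 4.46 there, at percentiles 88.9 and 63.0, from 58 and 40 fragments. MED1 had 3.76 and 8.07 at the same place, and SMC1A had 4.67 in replicate 2 and no peak in replicate 1. The NIPBL summits were 3 and 15 bp from the nearest MED1 summit. This compact intragenic site therefore carried NIPBL and MED1 in both of their libraries and SMC1A in 1 of 2.

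The 4 SMC1A regions of NFKB1 lay between 111.4 and 126.9 kb from the start, around the approximate gene end at 120 kb. None of them overlapped a NIPBL or MED1 peak of any library. The strongest, at chr4:103546697-103547150, had SMC1A folds of 24.4 and 23.9, at percentiles 91.0 and 88.5, from 138 and 156 fragments. The next, at 122.0 kb, had 17.4 and 18.8. Regions of NIPBL and MED1 thus lay no farther than 65.7 kb from the start, and those of SMC1A no nearer than 111.4 kb, although peaks listed in replicate 2 alone, of SMC1A and of MED1, lay between them.

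NFKB2, which encodes p100 and p52, was the window where strong SMC1A stood at the gene start. The MED1 region there (chr10:104153690-104155780) was 2091 bp wide. SMC1A had folds of 18.0 and 17.0 within it, at percentiles 79.6 and 76.5, from 154 and 166 fragments. No other gene start had SMC1A above 5.55. The SMC1A region ran from 104153555 to 104154037, and the NIPBL region found in both libraries began just beyond it, from 104154126 to 104154399. NIPBL was weak there, with 3.77 and 3.02, at percentiles 46.0 and 9.63. A further NIPBL peak of replicate 1, with a fold of 3.23, did overlap the SMC1A region.

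NFKB2 had 6 SMC1A regions, the most of the 5 windows. The strongest lay 28.6 kb from the start at chr10:104182387-104182801, with folds of 22.4 and 28.3, and its summits were at the same base in both libraries. MED1 was listed there in replicate 2 alone, at 4.42. In the gene body, at 5.44 kb, SMC1A had 11.03 and 12.8 and overlapped MED1, which had 4.53 and 6.12. NIPBL was not listed at either place. The remaining MED1 region, at chr10:104180582-104181241, had 3.83 and 5.65 and overlapped the weakest of the SMC1A regions, at 2.89 and 3.08.

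REL, which encodes c-Rel, was the window where NIPBL regions overlapped SMC1A regions as well as MED1 regions, as each of its 2 NIPBL regions did. Elsewhere a MED1 region met regions of both partners at the NFKB2 start and downstream of RELA, but there NIPBL and SMC1A regions did not overlap each other. The REL start held NIPBL with folds of 4.86 and 3.91, MED1 with 5.04 and 12.8, and SMC1A with 4.27 and 5.55. The SMC1A values were low for that list, at percentiles 19.4 and 37.8. A second site lay 7.4 kb upstream of the start, at chr2:61100431-61100748 for NIPBL.

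This upstream site had the strongest NIPBL of all 5 windows by percentile of fold. By percentile of −log10 p the intragenic site of NFKB1 had the higher mean, 85.8 against 84.4 at the REL site. NIPBL had folds of 6.18 and 6.40 there, at percentiles 91.2 and 91.8, so the libraries were close. MED1 had 5.00 and 8.57, and SMC1A had 3.63 and 6.38. A further MED1 region had its summits 2.4 kb into the gene (chr2:61109742-61110726), with 3.33 and 5.62, and overlapped NIPBL in replicate 1 and SMC1A in replicate 2 alone. No SMC1A region of the REL window was above percentile 50 in either library.

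RELA, which encodes p65, had its broadest MED1 and its only NIPBL region away from the gene start. The MED1 region at the start (chr11:65430110-65431737) overlapped a single NIPBL peak, of replicate 2, with a fold of 2.57 at percentile 1.60. The MED1 region at chr11:65405401-65408441 lay 22.8 kb from the start, beyond the approximate gene end at 9 kb. It was 3041 bp wide, the widest of the 5 windows, and had folds of 6.07 and 13.7, at percentiles 88.7 and 96.3. NIPBL lay inside it at chr11:65407099-65407399 with 3.83 and 5.07. SMC1A was weak there, with no fold above 4.35 in any of its peaks. A further MED1 region, at 9.7 kb near the approximate gene end, had 3.37 and 6.93 and no NIPBL.

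The strongest SMC1A region of the RELA window, at chr11:65393441-65393906, had folds of 14.9 and 23.3. No NIPBL or MED1 peak overlapped it. In RefSeq (GRCh38.p14) SIPA1 and PCNX3 lie on the downstream side of RELA, MANBA follows NFKB1, PSD follows NFKB2, PUS10 follows REL, and CLPTM1 and CLASRP flank RELB. The windows can therefore hold parts of neighbouring genes, and without an hg19 annotation no peak was assigned to a gene.

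RELB had the strongest SMC1A region of the 5 windows and no NIPBL region found in both libraries. That SMC1A region lay 12.4 kb upstream of the start, at chr19:45492436-45492947, with folds of 36.6 and 45.4, at percentiles 98.6 and 99.5, from 139 and 171 fragments. No NIPBL or MED1 peak overlapped it, and the nearest was a MED1 peak of replicate 2 with a fold of 7.23 at chr19:45493696-45494106. The only NIPBL peak of the window, of replicate 2, had a fold of 3.08 at 14.8 kb, where MED1 and SMC1A were also listed in replicate 2 alone, at 4.92 and 2.48. NIPBL replicate 1 had no peak in these 96 kb.

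Of the MED1 peaks in the RELB window, 1 was listed in replicate 1 and 6 in replicate 2. The other SMC1A regions of RELB had folds of 12.4 and 14.7 at 15.4 kb, 4.97 and 6.05 at 45.9 kb, and 15.6 and 16.2 at 57.9 kb. MED1 peaks of replicate 2 alone overlapped those at 15.4 and 45.9 kb. Outside the gene start, then, all MED1 and NIPBL peaks of this window were from replicate 2.

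**Figure D2:**
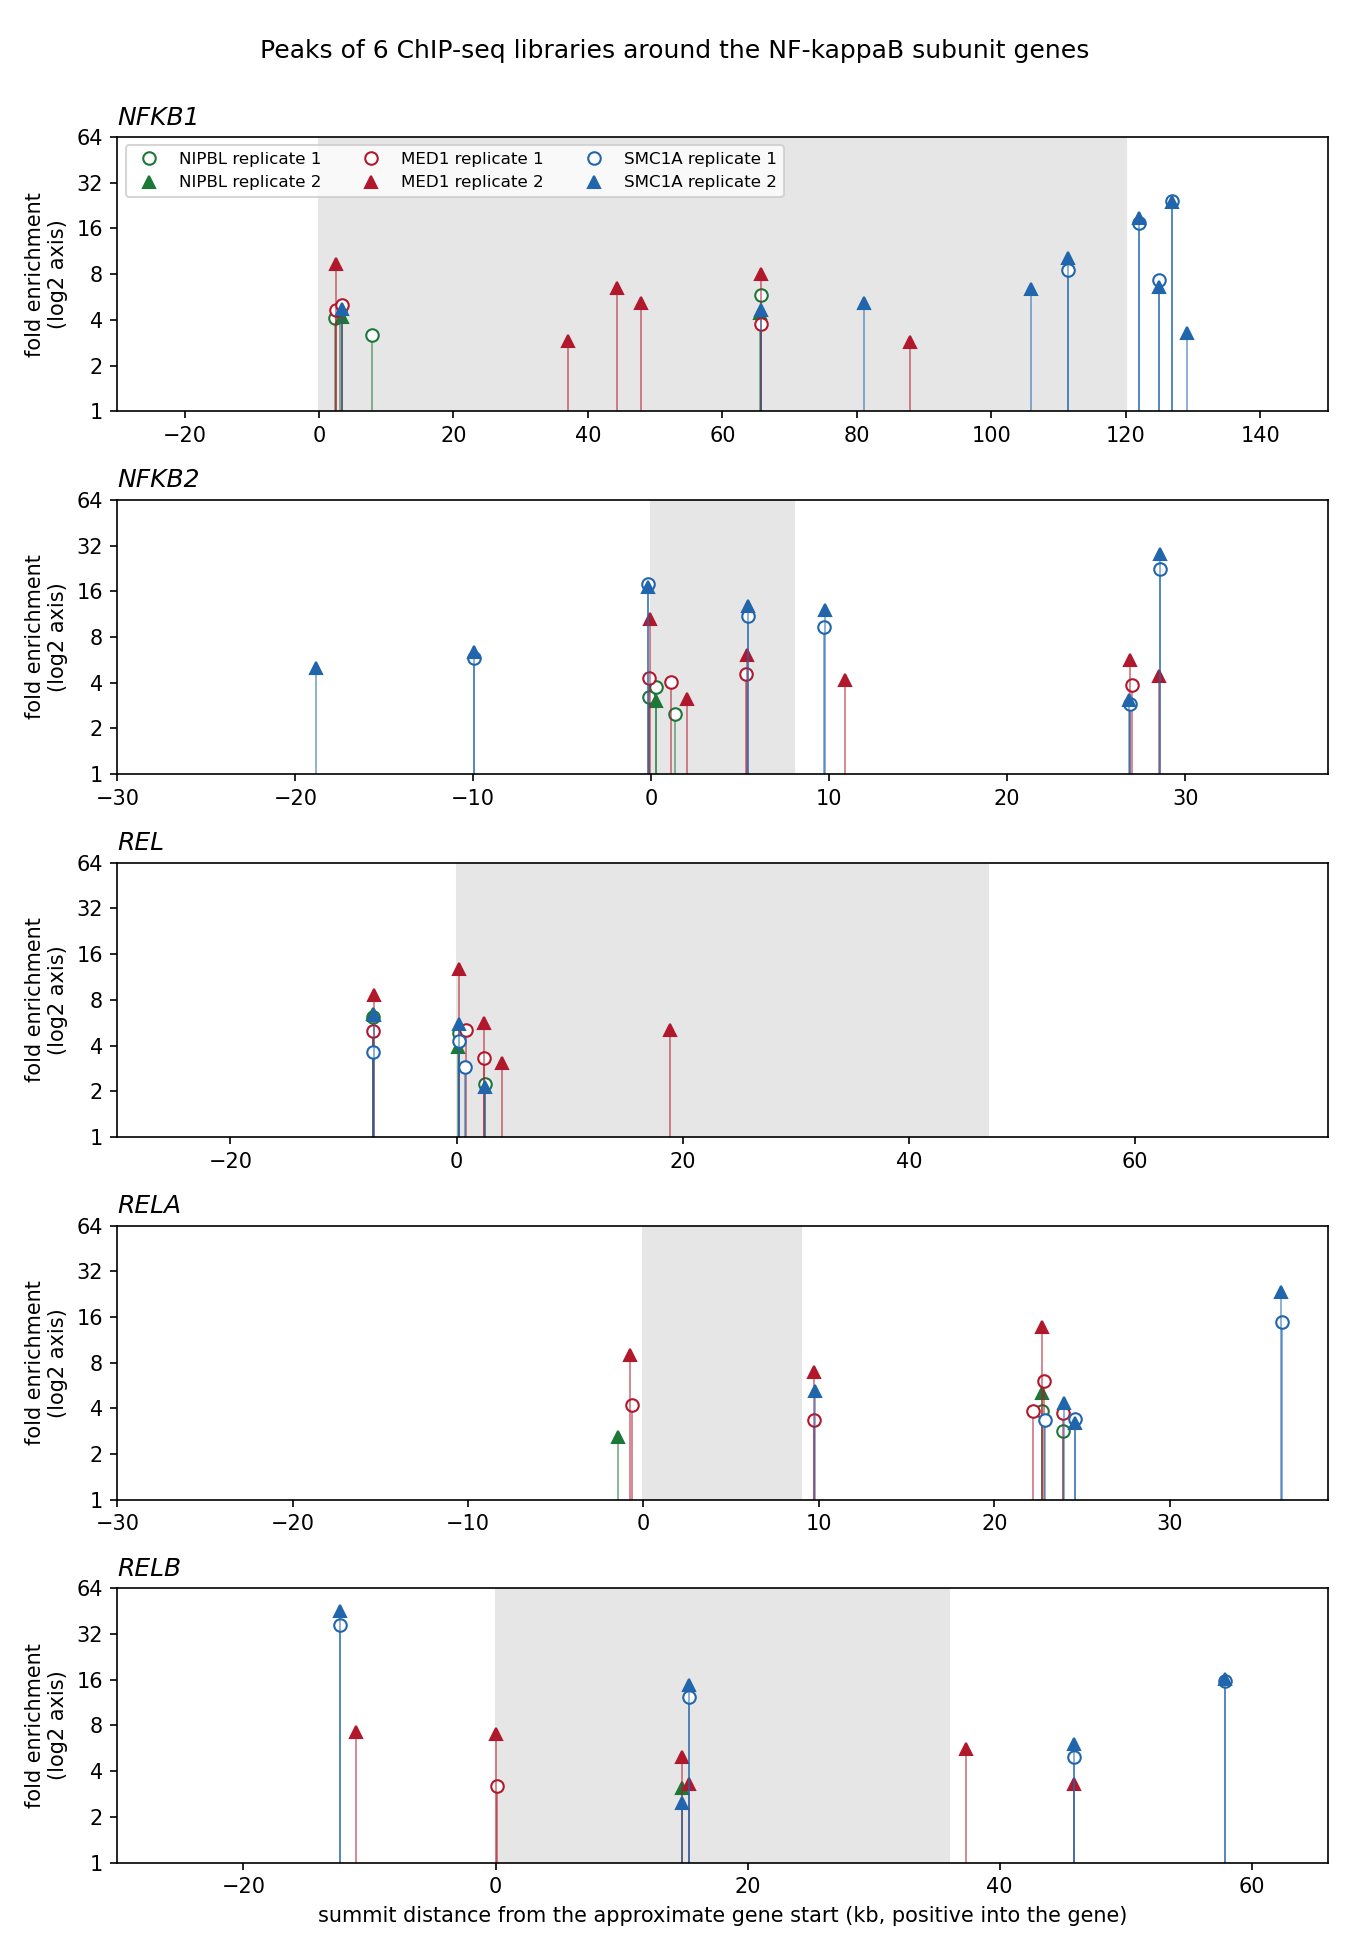
Each stem is a peak of 1 library, placed by the distance of its summit from the approximate gene start (kb, along the direction of transcription) and as tall as its fold enrichment (log2 axis), and the grey band is the approximate gene. NIPBL and MED1 coincide at 65.7 kb in NFKB1 and 7.4 kb upstream of REL, while the tallest SMC1A stem, 36.6 and 45.4 upstream of RELB, is overlapped by no peak of NIPBL or MED1.

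Across the 5 windows 6 NIPBL, 12 MED1 and 18 SMC1A regions were found in both libraries. A region here is the merge of overlapping peaks of a factor, kept if both replicates contributed. This came to 11.5, 23.1 and 34.6 regions per Mb for NIPBL, MED1 and SMC1A, beside 3.84, 4.95 and 16.8 over all chromosomes. The windows were picked around genes, so they hold no deserts, and the density was not compared with that of other genes. Median widths were 389 bp for NIPBL, 956.5 bp for MED1 and 450.5 bp for SMC1A, beside 473, 769 and 415 bp for all regions. MED1 regions wider than 2000 bp numbered 3 of 12, beside 8.24% of all MED1 regions.

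All 6 NIPBL regions overlapped a MED1 region, beside 70.2% of all NIPBL regions. With 6 members the exact 95% binomial interval of that share runs from 54.1 to 100%, so it includes the share of the whole list. For SMC1A the count was 2 of 6, beside 62.4% of all NIPBL regions, with an interval of 4.33 to 77.7% that includes it too. Both of the 2 were at REL. This share depended on the demand for both SMC1A libraries, since it was 66.7% without SMC1A replicate 1 and 50% without replicate 2. From the other side, 6 of 12 MED1 regions overlapped NIPBL, beside 49.3% of all, and 2 of 18 SMC1A regions did, beside 14.3% of all. MED1 and SMC1A shared 6 of 12 MED1 regions, beside 52.2% of all, and 6 of 18 SMC1A regions, beside 17.5% of all. SMC1A regions with neither partner numbered 12 of 18, beside 79.2% of all. For each of these counts the exact 95% binomial interval of the members' share included the share of all regions. Such intervals take regions as independent draws and are wide with so few members. Inclusion therefore does not show that the shares are alike.

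Regions above percentile 50 of fold enrichment in both replicates numbered 3 of 6 for NIPBL, beside 47.8% of all NIPBL regions. They numbered 8 of 12 for MED1, beside 51.8%, and 10 of 18 for SMC1A, beside 54.5%. By this measure the regions at these genes were near the background of each list.

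Distances between NIPBL and MED1 summits were near those over the whole series, with no test made. Of 12 distances from the strongest NIPBL summit of a region and replicate to the nearest MED1 summit of either library, 9 were at most 70 bp, beside 67.3% over all NIPBL regions, a limit chosen after the distances were seen. The median was 43.5 bp, beside 38 bp over all. The 3 others were 284 bp at the NFKB1 start and 329 and 365 bp at the NFKB2 start.

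For recurrence between libraries in the windows, the exact 95% binomial interval of each share included the share of the whole list. These intervals take peaks as independent draws, and inclusion does not show that the shares are alike. The shares themselves were farthest from their lists for replicate 2 of MED1, which was higher at 46.2%, and of SMC1A, which was lower at 64.3%. All 16 MED1 peaks of replicate 1 were also in replicate 2, beside 99.0% of that list, and 12 of 26 the other way, beside 33.5%. For SMC1A 19 of 20 peaks of replicate 1 recurred, beside 92.0%, and 18 of 28 of replicate 2, beside 75.6%. For NIPBL 6 of 12 peaks of replicate 1 recurred, beside 55.6%, and 6 of 8 of replicate 2, beside 79.3%.

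SMC1A regions in the windows had medians of strength near those of the whole list, both with and without MED1. The 6 that overlapped a MED1 region had mean percentiles of 3.61 to 78.1, with a median of 28.1. The 12 without ran from 34.2 to 99.1, with a median of 70.9. Over all SMC1A regions the medians were 26.8 with MED1 and 64.1 without, and in the windows the ranges overlapped. Some regions without a MED1 region still met a MED1 peak of replicate 2 alone, at 28.6 kb in NFKB2 and at 15.4 and 45.9 kb in RELB. Of the 6, the NFKB2 start and the NFKB2 gene body were the 2 above percentile 50. Regions of a window share libraries and are not replicates, so no test was made.

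**Figure D3:**
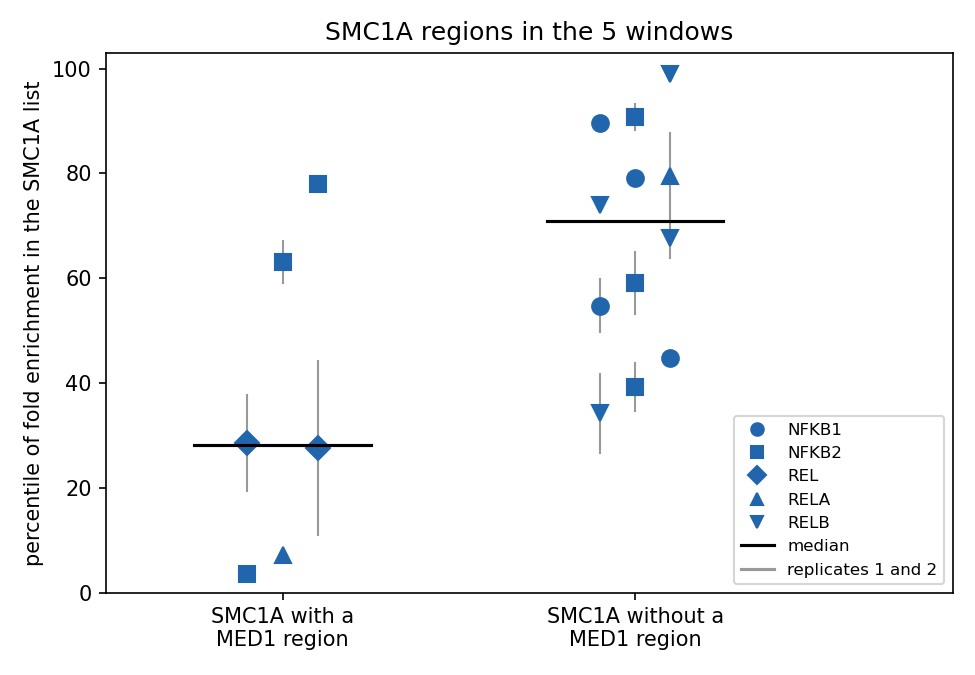
Each symbol is an SMC1A region of the 5 windows, placed at its mean percentile of fold enrichment over both SMC1A lists, with a grey line between the 2 replicates, a symbol shape for each gene and a black bar at the median. The 6 regions with a MED1 region have a median of 28.1 and the 12 without a median of 70.9, and the topmost, at 99.1, lies upstream of RELB.

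The length of DNA under peaks allowed a comparison of MED1 with SMC1A over libraries. The bp of peaks in a window were divided by the peak length of the whole list, and are given in parts per 1000000 (ppm). In RELA this was 268.9 and 206.8 ppm for MED1, against 38.8 and 62.6 for SMC1A. In REL it was 197.9 and 127.1 for MED1, against 47.1 and 70.7 for SMC1A. Both MED1 libraries thus lay above both SMC1A libraries in RELA and in REL. In NFKB1 it was 194.7 and 164.8 for MED1, against 69.2 and 121.9 for SMC1A, and in NFKB2 183.5 and 147.4 for MED1, against 100.8 and 92.2 for SMC1A, again with no overlap. In RELB it was 25.1 and 96.7 for MED1, against 86.6 and 85.7 for SMC1A, and the groups overlapped. The separation depended on dividing by the length of the list. By percent of the window under peaks it held at RELA alone. MED1 replicate 1 then lay below SMC1A replicate 2 at NFKB1 (0.909 against 1.86%), NFKB2 (2.27 against 3.72%) and REL (1.56 against 1.81%).

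The difference, MED1 minus SMC1A, was 187.1 ppm at RELA, from 237.8 ± 43.9 for MED1 and 50.7 ± 16.8 for SMC1A (SD, n = 2 each; two-sided exact permutation test, p = 0.333). It was 103.6 at REL, 84.2 at NFKB1 and 69.0 at NFKB2, each with an exact permutation p = 0.333. At RELB it was -25.2, with an exact permutation p = 1.00. With 2 libraries a side no test can give less than 0.333, so none of the 5 could pass, and no adjustment was made. The sign at RELB turned with the window edges, to 13.7 with 20 kb less on each side and 107.3 with 30 kb more, and to 10.6 without MED1 replicate 1. At REL it was 68.2 without that library, and 289.5 with 30 kb more. At RELA it was 99.1 with 20 kb less, beside 103.6 at REL, and 226.9 with 30 kb more, so the order of RELA and REL turned under both other choices of window edges. Depth, list length and peak width differ between the libraries, and their part in these differences was not tested.

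NIPBL shared the order of neither partner in full. In ppm it was 213.4 and 136.4 at NFKB1, 197.5 and 192.1 at REL, 59.6 and 94.5 at RELA, 80.6 and 43.2 at NFKB2, and 0 and 40.9 at RELB. NFKB1 and REL held the top 2 places in both NIPBL libraries, and RELB the last. In ppm RELA led in both MED1 libraries and was last in both SMC1A libraries. Between replicates the ppm order of NFKB1 and REL, and that of RELA and NFKB2, changed in NIPBL. In MED1 REL fell from above NFKB1 and NFKB2 to below both. In SMC1A NFKB1 rose from below NFKB2 and RELB to above both. For each pair that changed order the libraries of its genes overlapped in ppm. NFKB2 lay above RELB in both SMC1A libraries, with 100.8 and 92.2 against 86.6 and 85.7. The ppm were not divided by window length, which ran from 68 kb (NFKB2) to 180 kb (NFKB1), and the order depends on it. By percent of the window under peaks RELA still led in both MED1 libraries, with 3.28 and 8.11%. For SMC1A it was then not last, with 1.23 and 2.49%, above NFKB1 (0.844 and 1.86%) and REL (0.966 and 1.81%). NIPBL replicate 2 covered 0.428% at NFKB1, below 0.774% at RELA.

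**Figure D4:**
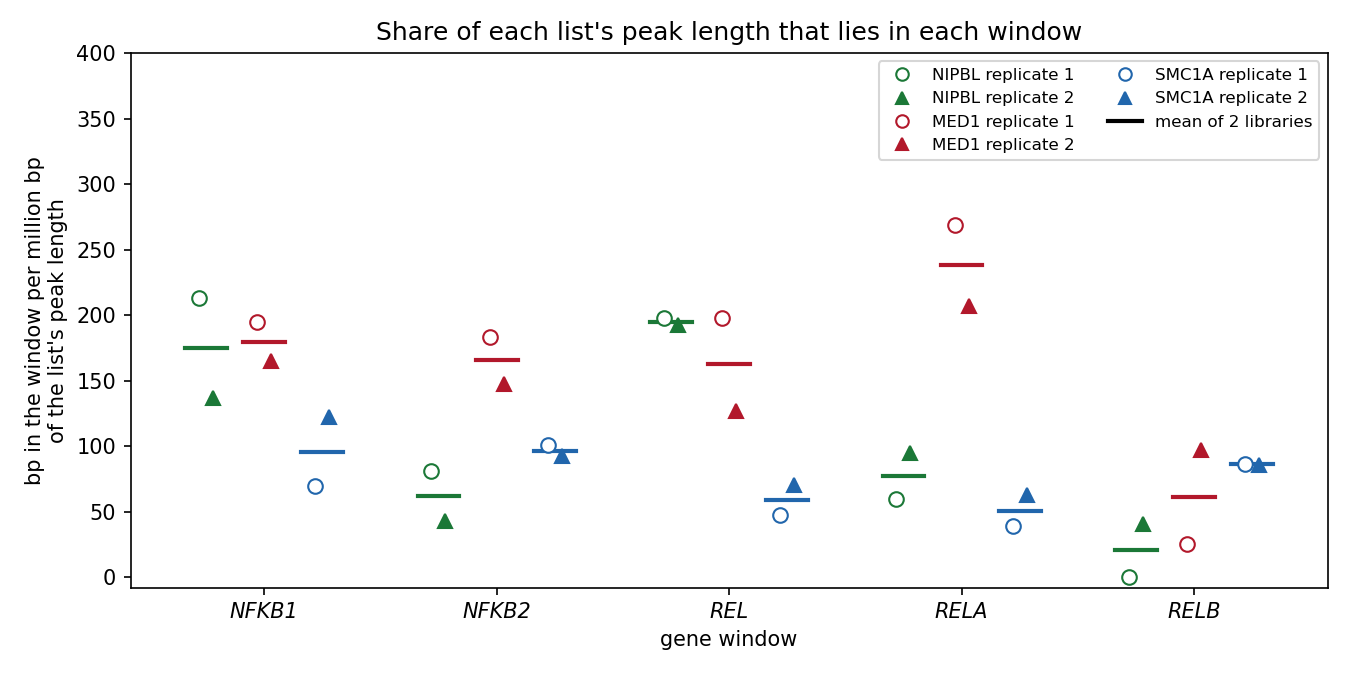
For each gene window, the bp under peaks as ppm of the peak length in the list (linear axis), with NIPBL, MED1 and SMC1A from left to right, open circles for replicate 1, filled triangles for replicate 2 and bars at the mean of 2 libraries. In ppm MED1 lies above SMC1A without overlap in 4 windows, as at RELA with means of 237.8 and 50.7, and the libraries overlap at RELB. By percent of the window under peaks, not drawn here, RELA alone keeps this separation. REL has the larger difference in place of RELA when the windows are trimmed or extended.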

How the data were processed

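Per the labels, formaldehyde-crosslinked GM12878 cells were used, and each ChIP library was called alone against the pool of 2 WCE libraries. Trimmomatic 0.33, BWA 0.7.12, MACS2 2.1.0 and hg19 are named, per the submitters' processing notes. How each was set is not given in the sources used here. The deposited lists give fold enrichment as a linear ratio, and −log10 p and −log10 q values at each summit. The authors' summit offset gave the summit positions.

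Chromosomes 1 to 22 and X were used, with 1-based positions and an overlap of at least 1 bp. Genome-wide densities use the length up to the last peak of each chromosome. Fragments at summits were solved from fold and p-value (whole within 0.05 in 99.8 to 100% of peaks per list). The lowest control estimate of a list gave its relative depth. Shares have exact Clopper-Pearson intervals and fragment numbers exact Poisson intervals, both at 95%. The overlap, fragment and permutation steps were tested on simulated data.

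The genes and tests were chosen with earlier results of these data known. All 5 windows are described, and the regions named are the strongest of each factor by mean percentile, the widest MED1 region and those within 2 kb of the approximate start. Other regions and single-library peaks were chosen after their values were seen. Pathway genes outside the windows were not analysed here, since no hg19 annotation was used, and no gene is named as most alike. Alternatives were ranking by −log10 p, −log10 q of at least 5, equal numbers of top peaks, a larger overlap, either replicate, other window edges, each library left out and a replicate block. Python 3.11.15, pandas 2.3.3, numpy 2.4.6, scipy 1.17.1 and matplotlib 3.10.9 were used.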

Additional observations from a re-analysis of the deposited data

How the results depend on the processing

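Regions of either replicate numbered 14 for NIPBL, 26 for MED1 and 29 for SMC1A, and windows extended by 30 kb held 12, 23 and 32. With the 15357 top peaks of every list 4 SMC1A regions were left, and 0% of NIPBL regions had SMC1A, because that setting takes most peaks from the SMC1A lists. Leaving out a library gave 6 to 12 NIPBL regions (12 without NIPBL replicate 2), 12 to 26 MED1 regions (26 without MED1 replicate 1) and 18 to 28 SMC1A regions (28 without SMC1A replicate 1). The share of NIPBL regions with MED1 then ran from 87.5 to 100% and with SMC1A from 25 to 66.7% (66.7% without SMC1A replicate 1). The MED1 minus SMC1A difference without 1 library ran from 57.8 to 110.5 ppm at NFKB1, 50.9 to 87.0 at NFKB2, 68.2 (without MED1 replicate 1) to 139.0 at REL, 156.1 to 218.2 at RELA and -61.0 to 10.6 at RELB. At RELB it also turned to 13.7 in windows trimmed by 20 kb and 107.3 in windows extended by 30 kb, and the cause was not tested. The differences at the other 4 genes kept their sign under every alternative run. They moved by over 1.5 times in several settings. With equal numbers of top peaks they were 110.5 at NFKB2, 168.6 at REL and 306.1 at RELA (-40.4 at RELB). REL was 289.5 in extended windows and RELA 99.1 in trimmed ones, and REL then exceeded RELA in both, with 103.6 trimmed, beside 226.9 for RELA extended. Of NIPBL regions 64.3% overlapped SMC1A for either replicate, 50% in extended windows and 20% at −log10 q of at least 5. The percentile of MED1 at the RELB start fell to 22.7 with equal numbers of top peaks, and that at the NFKB1 start to 72.3. Those at REL, NFKB2 and RELA fell as well, to 81.3, 68.7 and 61.3. That setting ranks peaks within shortened lists, so the percentile of a kept peak must fall.

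Replicate numbers are shared between factors, but no label says that they pair libraries. Deviations of same-numbered MED1 and SMC1A libraries from their factor means had a correlation of -0.047 over 7812 shared regions. These are deviations of percentiles within lists, so the value cannot show whether same-numbered libraries share a culture or batch. Exchanging labels within a number, as a replicate block, left the differences at 84.2, 69.0, 103.6, 187.1 and -25.2 for NFKB1, NFKB2, REL, RELA and RELB, with exact permutation p = 0.5 for the first 4 and 1.00 for RELB. No threshold could be passed in either fit.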

Other observations

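The 30 kb beyond each window held further regions found in both libraries, which were counted above in the extended windows and are described here. Around REL there were 4 NIPBL, 6 MED1 and 3 SMC1A regions. On the upstream side MED1 had folds of 5.05 and 11.6 at chr2:61067859-61068499, with NIPBL of 4.49 and 5.64 at chr2:61067927-61068369. An SMC1A region with 3.78 and 4.37 overlapped both, at chr2:61068016-61068313. RELB, which had no NIPBL region in its window, had 2 NIPBL regions beyond the downstream edge. The nearer, at chr19:45578450-45578837, had folds of 4.32 and 6.02 and lay 73.6 kb from the approximate start. It overlapped a MED1 region of 2045 bp with folds of 5.84 and 14.5, and an SMC1A region with 3.56 and 4.19. A MED1 region at chr19:45582126-45583596, with 7.74 and 14.3, was the strongest MED1 of those just outside the 5 windows by percentile in replicate 1. It overlapped no NIPBL or SMC1A region found in both libraries. NIPBL peaks of replicate 1 alone, at 2.59 and 2.64, and an SMC1A peak of replicate 2 alone, at 5.78, did lie in it. Around RELA there were 2 MED1 and 3 SMC1A regions and no NIPBL region. Beyond NFKB1 and NFKB2 there was no NIPBL or MED1 region, and SMC1A had 1 and 2.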
